A study of Rattus norvegicus with 12 samples.

Results

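The livers of rats given myclobutanil were compared with the livers of rats given propiconazole at the same dose, across all rat genes read by the array. The comparison took every array titled with either compound, 6 of the 12 arrays in the series, with 3 livers for each compound. All animals were adult male Sprague-Dawley rats 10 weeks old given their compound by gavage at 24 h intervals until 72 h. Myclobutanil and propiconazole were each dosed at 300 mg/kg/day. The 3 control rats serve here only to show which compound moved a gene, and the labels do not state what they were given. A further 3 rats received triadimefon at 175 mg/kg/day, a dose that is not matched. RNA of each liver was hybridized to its own Affymetrix Rat Genome 230 2.0 array, without pooling.

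Myclobutanil and propiconazole are agricultural fungicides that kill fungi by blocking the lanosterol demethylase of ergosterol synthesis, and the mammalian form of that enzyme is Cyp51. Both molecules join a triazole ring, whose nitrogen binds the heme iron of cytochromes P450, to a chlorinated phenyl ring. Myclobutanil is a nitrile with a butyl side chain, whereas propiconazole is a dioxolane, a cyclic ketal, with a propyl side chain and an additional chlorine. In rodent liver such compounds are known to activate the nuclear receptors CAR and PXR, which switch on drug-metabolizing enzymes. Hepatocytes also adjust cholesterol synthesis through SREBP-2, a membrane-bound factor that enters the nucleus when sterols in the endoplasmic reticulum run low and then drives nearly every gene of the pathway. Kupffer cells, the resident macrophages of the liver, share the organ with hepatocytes, and whole liver RNA holds the transcripts of both.

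Values are quantile-normalized and keep the log-like units of the deposited table. Because nothing states which logarithm was taken, the differences are not fold changes. A difference is always propiconazole minus myclobutanil, ± SE from limma, unless a control is named. Each gene was read by its brightest probe set. One myclobutanil array, replicate 1, departed from the rest. Its median value as deposited (0.157) lay outside the range of the remaining 11 (0.0182 to 0.0552), as did its median correlation to them (0.928, where theirs ran from 0.962 to 0.982). RNA integrity can be read from how far the 3' probe set of GAPDH lies above the 5' one. That gap was 0.624 ± 0.128 with myclobutanil, 0.434 ± 0.106 with propiconazole and 0.659 ± 0.252 in controls (SD, n = 3 each). The same gap of beta-actin was 0.807 ± 0.145 with myclobutanil, 0.636 ± 0.0925 with propiconazole and 0.682 ± 0.202 in controls. By GAPDH propiconazole lay further from control, and by beta-actin myclobutanil did. The part of these gaps in the results was not tested.

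Across 21729 probe sets, no difference between the compounds passed the test (0% called at a limma adjusted p under 0.05), in a comparison of 1 pair of compounds. The smallest adjusted p was 0.0586, for Fcna. At an unadjusted p under 0.05 limma counted 2200 probe sets, 10.1% of those tested, of which 1144 (5.26%) were higher with propiconazole and 1056 (4.86%) were lower. At an adjusted p under 0.10 it counted 13 probe sets (0.0598%), 3 higher (0.0138%) and 10 lower (0.046%). Among genes, each read by its brightest probe set, it counted 9 (0.076%), 2 higher (0.0169%) and 7 lower (0.0591%). The 13 also held a probe set of Ube2b that is not the brightest of its gene (0.56 ± 0.086, limma adjusted p = 0.0779). Others of the 13 had no single gene. The 3 livers of one compound all lay on one side of the 3 of the other in 1704 of 11842 genes (14.4%), and in 13.4% of probe sets (7.13% higher and 6.31% lower with propiconazole). Against control the same fit called 267 genes with myclobutanil (2.25% of 11842 genes, 151 higher and 116 lower) and 199 genes with propiconazole (1.68%, 118 higher and 81 lower). The 95% interval of the difference reached 0.141 units to either side for the median probe set and less than 0.3 units for 92.6% of them, and the number of arrays limits this precision. Intervals of this width leave room for differences between the compounds that the test did not call.

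The count of 0 depended on single arrays and on how arrays were weighted. Without myclobutanil replicate 1, limma called 29 probe sets, 8 higher and 21 lower with propiconazole. The count was 9 without myclobutanil replicate 2, 1 without myclobutanil replicate 3, 2 without propiconazole replicate 3, 5 without triadimefon replicate 1 and 1 without triadimefon replicate 3, and it was 0 without each of the other 6 arrays. With limma array weights, which gave myclobutanil replicate 1 a weight of 0.0958 and myclobutanil replicate 2 a weight of 4.62, it was 343, with 114 higher and 229 lower. Differences named below therefore did not pass the main test, and calls made without myclobutanil replicate 1 are named as such.

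**Figure D1:**
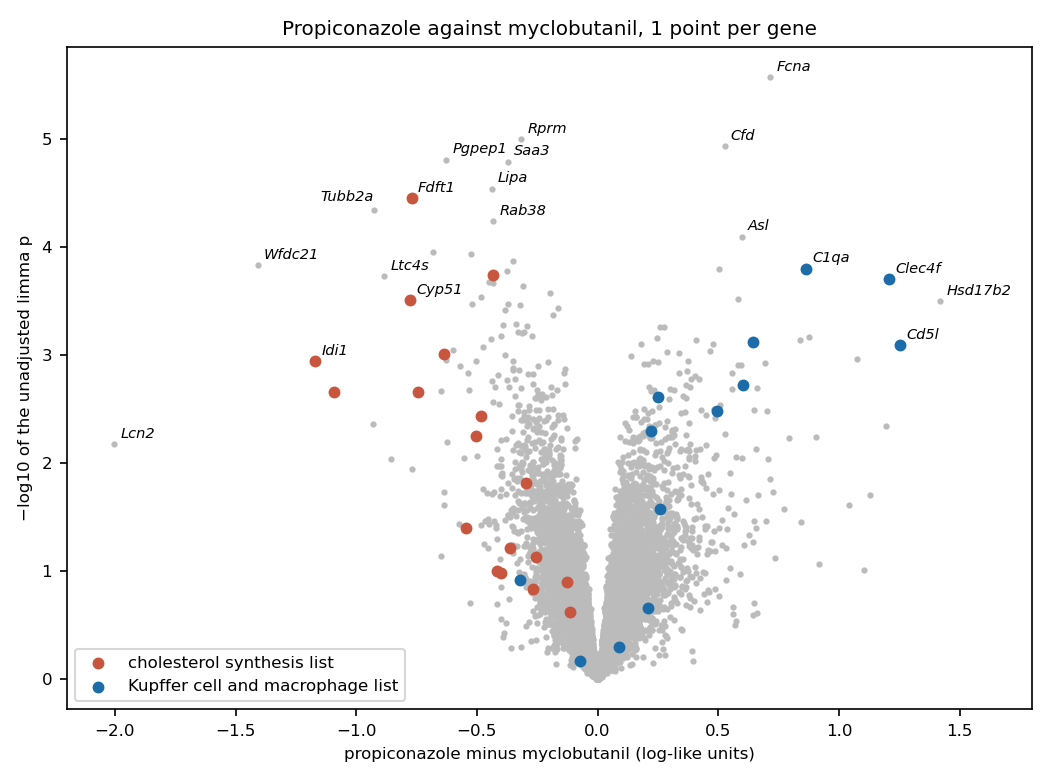
Each point is 1 of 11842 genes, with its propiconazole minus myclobutanil difference (log-like units) on the horizontal axis and the −log10 of its unadjusted limma p on the vertical axis. Cholesterol synthesis genes (red) all lie left of 0, most Kupffer cell and macrophage genes (blue) lie right of it, and no gene reached an adjusted p under 0.05 (Fcna, at the top, had 0.0586).

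Cholesterol synthesis genes lay lower with propiconazole than with myclobutanil in all 18 of the 18 genes tested out of 21 listed, whereas 5599 of all 11842 genes lay on that side. The median difference of the list was -0.46, beside 0.01 over all genes. None of the 18 passed the test. Of these, 11 had an unadjusted p under 0.05 and a lower value with propiconazole, against 5.56% of all genes, and in 10 the 3 propiconazole livers all lay below the 3 myclobutanil livers, against 7.03% of all genes. The mean over the 18 genes was 1.41, 1.67 and 1.60 in the myclobutanil livers, 0.92, 1.02 and 1.17 in the propiconazole livers and 1.20, 1.24 and 1.04 in the controls. The myclobutanil livers were thus above both other groups, and propiconazole livers overlapped with controls. Against control, myclobutanil raised 2 of the 18 genes (Acat2 and Sqle; 1.28% of all genes rose), and propiconazole lowered 1 (Nsdhl; 0.684% of all genes fell). The list's median was 0.34 for myclobutanil minus control and -0.10 for propiconazole minus control, 2 comparisons that share the 3 control livers. Without myclobutanil replicate 1 the median difference between the compounds was -0.62, and Lss and Acat2 were called lower, beside 13 of all 11842 genes in that fit.

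The promoters of 5 of these genes are shown because their differences span the pathway. All of them but Cyp51 hold the CCAAT box. This short motif binds the factor NF-Y, which is known to act beside SREBP-2. Each line gives the 150 bases before the RefSeq start in the GRCr8 build, read 5′ to 3′ along the gene, with each CCAAT box in capitals (ATTGG where it lies on the other strand).
Idi1, chr17:66547525-66547674, minus strand: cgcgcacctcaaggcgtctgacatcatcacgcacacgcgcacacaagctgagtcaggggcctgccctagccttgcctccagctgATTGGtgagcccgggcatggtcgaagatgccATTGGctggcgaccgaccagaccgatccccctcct
Lss, chr20:12118231-12118380, minus strand: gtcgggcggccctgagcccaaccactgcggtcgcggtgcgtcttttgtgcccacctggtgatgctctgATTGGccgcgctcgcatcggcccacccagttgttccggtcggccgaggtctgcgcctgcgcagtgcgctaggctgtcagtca
Cyp51, chr4:30991543-30991692, plus strand: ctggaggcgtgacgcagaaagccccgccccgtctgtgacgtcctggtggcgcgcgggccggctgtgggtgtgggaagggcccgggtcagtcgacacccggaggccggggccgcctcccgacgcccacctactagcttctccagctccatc
Msmo1, chr16:29746963-29747112, plus strand: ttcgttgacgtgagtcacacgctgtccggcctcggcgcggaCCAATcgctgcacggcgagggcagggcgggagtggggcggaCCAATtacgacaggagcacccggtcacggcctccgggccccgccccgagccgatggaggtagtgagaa
Nsdhl, chrX:155817210-155817359, plus strand: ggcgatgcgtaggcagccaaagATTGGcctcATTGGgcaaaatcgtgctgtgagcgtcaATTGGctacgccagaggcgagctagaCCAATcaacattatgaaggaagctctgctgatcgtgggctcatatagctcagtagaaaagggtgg
Msmo1 and Idi1 each hold 2 such boxes in this window, Nsdhl holds 4, Lss holds 1 and Cyp51 holds 0. Within the 250 bases before the start, CCAAT on either strand was present in 12 of the 15 promoters of list genes found in the RefSeq table (80%), beside 34.0% of all 33469 promoters. Within 100 bases the counts were 11 of 15 (73.3%), beside 17.1% of all. A higher share than over all promoters was not particular to CCAAT. The dioxin response core GCGTG was in 8 of the 15 within 250 bases (53.3%), beside 25.9% of all. Within 100 bases it was in 3 of the 15 (20%), beside 14.0% of all. The sterol regulatory element core TCACNCCAC was searched on both strands in the same 250 bases and was in 0 of the 15, beside 0.974% of all promoters, which says only that these letters are not in this window. These matches are a description of the letters and not a measurement of binding.

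At the start of the pathway, Acat2, the cytosolic enzyme that joins acetyl-CoA units, read 0.69, 1.27 and 1.09 in the myclobutanil livers, 0.24, 0.39 and 0.51 in the propiconazole livers and 0.37, 0.50 and 0.17 in the controls. All 3 myclobutanil livers were above the other 6. The difference was -0.64 ± 0.144 (limma adjusted p = 0.247), and the rise with myclobutanil against control was 0.67 (adjusted p = 0.044). Idi1, which interconverts the isoprene building blocks, had the largest difference of the list. It read 1.44, 1.84 and 2.64 with myclobutanil, 0.63, 0.77 and 1.02 with propiconazole and 1.08, 1.34 and 0.90 in controls. The highest propiconazole liver lay below the lowest myclobutanil liver, and the difference was -1.17 ± 0.271 (adjusted p = 0.254). A second Idi1 probe set gave a smaller difference, -0.68 ± 0.275, and there the compounds overlapped. Fdps, which builds farnesyl diphosphate, read 2.39, 2.77 and 2.50 with myclobutanil and 1.58, 2.08 and 2.37 with propiconazole. Here the 2 groups nearly touched, and the difference was -0.54 ± 0.235. Mvk and Mvd, early mevalonate pathway enzymes, differed by -0.11 and -0.13, and their groups overlapped.

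Fdft1, the squalene synthase that commits farnesyl diphosphate to sterols, came closest of the list to the threshold. It read 2.04, 1.99 and 2.09 with myclobutanil, 1.08, 1.29 and 1.44 with propiconazole and 1.55, 1.58 and 1.55 in controls. The 3 groups did not overlap, with controls between the compounds. The difference was -0.77 ± 0.117 (limma adjusted p = 0.0779). A second Fdft1 probe set gave -0.42 ± 0.142 with compounds that overlapped, and it was called lower without myclobutanil replicate 1. Sqle, the squalene epoxidase, read 1.21, 1.30 and 1.73 with myclobutanil, 0.48, 0.65 and 0.88 with propiconazole and 0.42, 0.62 and 0.12 in controls. Sqle rose with myclobutanil against control by 1.03 (adjusted p = 0.026), and its value for propiconazole against control was 0.29 (adjusted p = 0.528). The difference between the compounds was -0.74 ± 0.189 (adjusted p = 0.293).

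Lss, which closes squalene epoxide into lanosterol, the substrate of Cyp51, read 0.58, 1.24 and 1.15 with myclobutanil and 0.41, 0.44 and 0.61 with propiconazole. Replicate 1 of myclobutanil alone fell within the range of the propiconazole livers. The difference was -0.50 ± 0.148 over all arrays and -0.71 ± 0.0958 without that array, where limma called it (adjusted p = 0.0293). Cyp51, the demethylase that triazoles are designed to block in fungi, read 2.72, 2.98 and 2.90 with myclobutanil, 2.05, 1.89 and 2.31 with propiconazole and 2.03, 2.50 and 2.17 in controls. Its propiconazole livers lay within or just below the control range, and its myclobutanil livers lay above both. The difference was -0.78 ± 0.152 (adjusted p = 0.175), and a second Cyp51 probe set gave -0.44 ± 0.130. The first of these probe sets, like the main one of Asl, carries a suffix that marks probes shared with other transcripts.

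Past Cyp51, the enzymes that trim lanosterol to cholesterol lay on the same side. Msmo1, which oxidizes the methyl groups of sterols, read 1.77, 2.37 and 2.96 with myclobutanil, 1.07, 1.08 and 1.67 with propiconazole and 1.63, 1.98 and 1.66 in controls. The difference was -1.09 ± 0.277 (limma adjusted p = 0.293). Nsdhl, the sterol dehydrogenase of the next step, was the gene in which propiconazole and not myclobutanil stood off from control. It read 2.38, 2.42 and 2.52 with myclobutanil, 1.94, 2.07 and 2.02 with propiconazole and 2.41, 2.44 and 2.44 in controls. Nsdhl fell by 0.42 with propiconazole against control (adjusted p = 0.030), the value with myclobutanil was 0.01 (adjusted p = 0.940), and the difference between the compounds was -0.43 ± 0.079 (adjusted p = 0.161). Dhcr7, which makes the last reduction to cholesterol, read 1.81, 2.17 and 1.82 with myclobutanil and 1.38, 1.46 and 1.50 with propiconazole, a difference of -0.48 ± 0.132. Ebp, Sc5d, Tm7sf2 and Hsd17b7 differed by -0.27, -0.36, -0.42 and -0.40, with groups that overlapped in each.

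**Figure D2:**
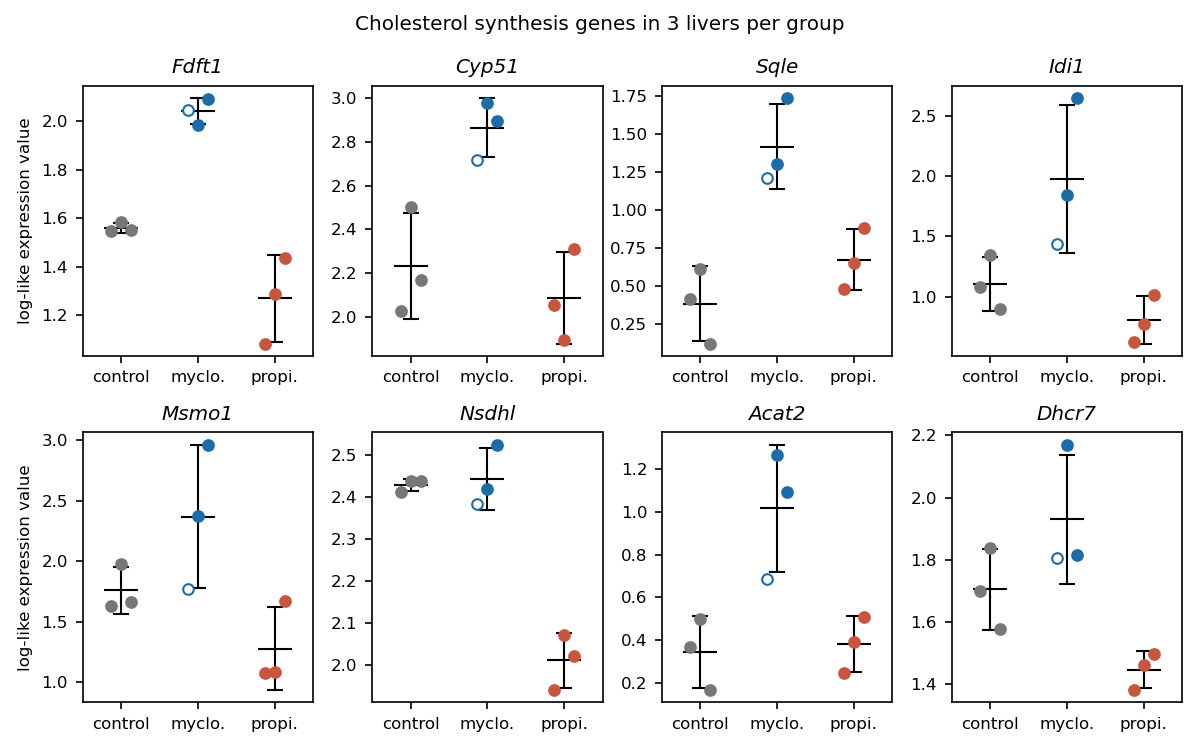
Log-like expression values of 8 cholesterol synthesis genes in 3 control, 3 myclobutanil (myclo.) and 3 propiconazole (propi.) livers, 1 point per liver, with the group mean and SD as bars and myclobutanil replicate 1 as an open point. In these 8 genes all 3 propiconazole livers lie below all 3 myclobutanil livers, and the vertical scale differs between panels.

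Genes that sense and move sterols lay on both sides. Of 13 tested out of 18 listed, 6 were higher and 7 lower with propiconazole, with a median of -0.11, and 0 were called. At an unadjusted p under 0.05, 6 were lower and 1 higher (5.56% and 5.53% of all genes), and 4 were lower and 0 higher without overlap (7.03% and 7.36%). Insig2, which holds the SREBP escort in the endoplasmic reticulum, read 2.22, 1.99 and 2.50 with myclobutanil, 1.95, 1.66 and 1.51 with propiconazole and 2.49, 2.63 and 2.64 in controls. Every propiconazole liver was below every myclobutanil liver, and 1 myclobutanil liver reached the control range. Insig2 fell by 0.88 with propiconazole against control (limma adjusted p = 0.015), the value with myclobutanil was -0.35 (adjusted p = 0.176), and the difference between the compounds was -0.53 ± 0.135 (adjusted p = 0.293). Insig1, its SREBP-2-responsive relative, read 2.87, 2.72 and 2.58 with myclobutanil and 2.22, 1.51 and 2.53 with propiconazole, a difference of -0.64 ± 0.247. Srebf2, which encodes SREBP-2, differed by -0.17 ± 0.062. Without myclobutanil replicate 1 the list's median was -0.03.

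Among 18 fatty acid synthesis genes, all tested, 12 were lower and 6 higher with propiconazole, with a median of -0.12 and 0 called. Fasn, the fatty acid synthase, read 2.22, 2.01 and 1.38 with myclobutanil, 0.55, 0.78 and 1.50 with propiconazole and 1.77, 1.51 and 1.47 in controls. The propiconazole liver of replicate 3 and the myclobutanil liver of replicate 3 crossed, so the groups overlapped, and the difference was -0.93 ± 0.262 (limma adjusted p = 0.349). A second Fasn probe set gave a smaller difference, -0.47 ± 0.281. Elovl6, which lengthens palmitate, read 0.84, 0.996 and 0.78 with myclobutanil and 0.27, 0.35 and 0.50 with propiconazole, without overlap, and the difference was -0.50 ± 0.116 (adjusted p = 0.254). A second Elovl6 probe set gave -0.40 ± 0.0905. Acly, which supplies cytosolic acetyl-CoA, differed by -0.77 ± 0.255. Acaca and Dgat2, of the same pathway, differed by 0.02 [95% interval -0.22 to 0.26] and 0.05 [-0.16 to 0.26]. Without myclobutanil replicate 1 the median of the list was -0.03.

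Most macrophage genes lay higher with propiconazole, and 6 of them fell with myclobutanil against control. Of 17 Kupffer cell and macrophage markers 13 were tested, and 11 were higher and 2 lower with propiconazole, with a median of 0.26 and 0 called. An unadjusted p under 0.05 and a higher value was found for 9 (5.53% of all genes), and 8 were without overlap between the compounds (7.36% of all genes). Myclobutanil lowered 6 of the 13 against control (Clec4f, Cd5l, C1qa, C1qc, Adgre1 and Folr2; 0.98% of all genes fell), and 0 were called with propiconazole. The mean over the 13 genes was 1.05, 0.61 and 0.61 in the myclobutanil livers, 1.17, 1.13 and 1.28 in the propiconazole livers and 1.18, 1.35 and 1.31 in the controls. Marco, Vsig4, Timd4 and Msr1, also listed, were not tested here. Fewer macrophages and less of these transcripts per macrophage cannot be told apart in whole liver RNA.

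Clec4f, a lectin made by Kupffer cells in rodents, read 1.58, 0.63 and 0.48 with myclobutanil, 2.01, 2.06 and 2.24 with propiconazole and 2.11, 2.41 and 2.23 in controls. Myclobutanil replicates 2 and 3 were far below the other 7 livers, and replicate 1 was between. The difference was 1.21 ± 0.224 (limma adjusted p = 0.161), Clec4f fell by 1.35 with myclobutanil against control (adjusted p = 0.018), and without myclobutanil replicate 1 the difference was called at 1.55 ± 0.102 (adjusted p = 0.00043). Cd5l, a secreted macrophage protein, read 1.41, 0.21 and 0.14 with myclobutanil, 1.92, 1.60 and 1.99 with propiconazole and 1.66, 1.96 and 2.08 in controls. The difference was 1.25 ± 0.277 over all arrays (adjusted p = 0.233) and 1.67 ± 0.145 without that array (adjusted p = 0.00205). Fcna, a ficolin that marks sugars on microbes for complement, had the smallest p of the whole comparison. It read 0.30, 0.03 and -0.02 with myclobutanil, 0.81, 0.80 and 0.84 with propiconazole and 1.03, 0.94 and 1.002 in controls. The propiconazole livers were tightly grouped a little below the controls, and the difference was 0.71 ± 0.083 (adjusted p = 0.0586). Fcna was called with arrays centred on their medians, with 50% of probe sets left out and with no intensity trend. It was also called with array weights, and without myclobutanil replicate 1 or triadimefon replicate 1. It was not called under the other settings, and with the 6 arrays alone the smallest adjusted p of any probe set was 0.276.

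The 3 chains of complement C1q, which are made by macrophages, differed alike in direction. C1qa read 1.02, 0.47 and 0.37 with myclobutanil, 1.33, 1.49 and 1.63 with propiconazole and 1.66, 1.59 and 1.62 in controls. The difference was 0.86 ± 0.156 for C1qa (limma adjusted p = 0.158), 0.60 ± 0.150 for C1qb and 0.65 ± 0.141 for C1qc. C1qa and C1qc were called without myclobutanil replicate 1, at 1.07 and 0.85. Folr2, a folate receptor of resident macrophages, was the marker in which replicate 1 did not stand off from its group: it read 0.24, 0.22 and 0.25 with myclobutanil, 0.50, 0.40 and 0.55 with propiconazole and 0.53, 0.59 and 0.55 in controls. Cd163, a hemoglobin scavenger receptor, and Adgre1, the F4/80 antigen, differed by 0.50 ± 0.133 and 0.22 ± 0.063. Other macrophage genes did not stand apart in this way. Lyz2 (lysozyme), Cd14, Mrc1 and Cd68 differed by -0.32 [95% interval -0.74 to 0.10], 0.09 [-0.20 to 0.38], -0.07 [-0.44 to 0.30] and 0.21 [-0.15 to 0.56], with overlapping groups. Without myclobutanil replicate 1 the list's median was 0.41 and 4 members were called higher, beside 8 of all 11842 genes in that fit.

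**Figure D3:**
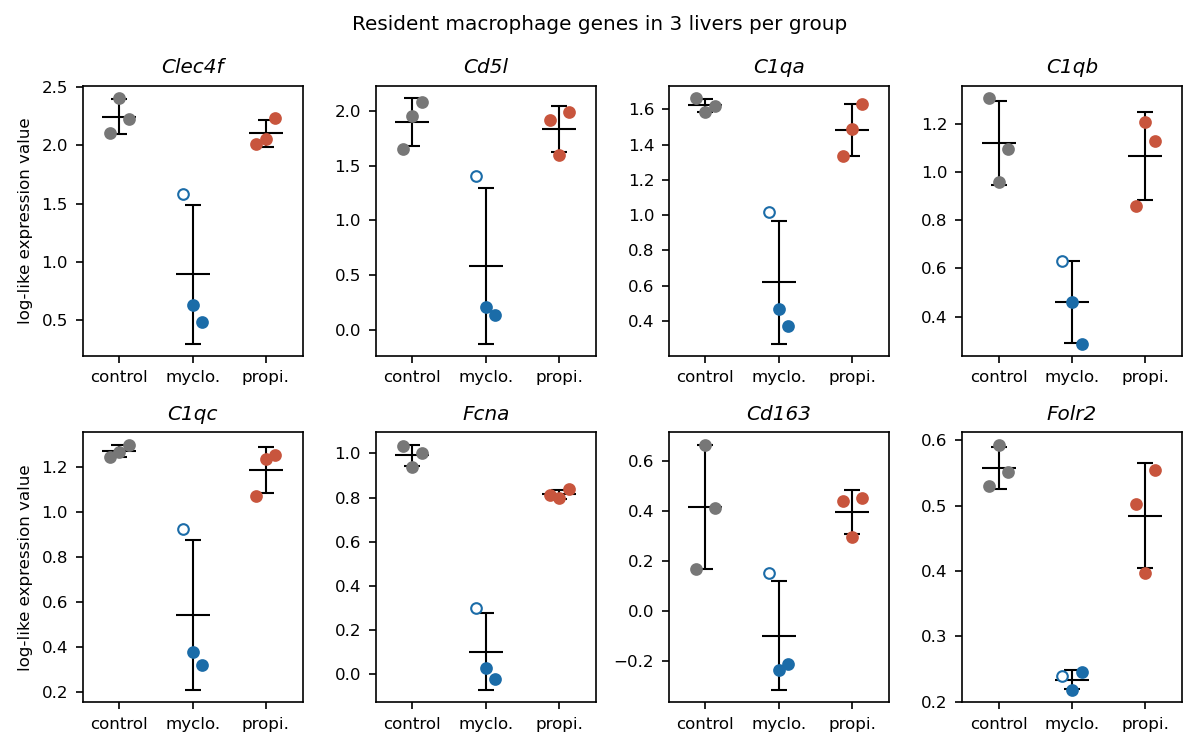
Log-like expression values of 8 resident macrophage genes (7 of the marker list, and Fcna) in 3 control, 3 myclobutanil (myclo.) and 3 propiconazole (propi.) livers, 1 point per liver, with the group mean and SD as bars and myclobutanil replicate 1 as an open point. The myclobutanil livers lie below the propiconazole livers in each panel; for Clec4f, Cd5l, C1qa, C1qb, C1qc, Fcna and Cd163 replicate 1 is the highest of them.

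Markers of the other cell types had smaller median differences. Of 20 hepatocyte markers tested, 17 were higher and 2 lower with propiconazole, with a median of 0.12, and the mean over the 20 was 2.69, 2.90 and 2.77 in the myclobutanil livers and 2.93, 3.03 and 2.89 in the propiconazole livers. The labelled tissue thus carried the markers of hepatocytes at high levels in each liver. The medians were -0.02 for 18 stellate cell and fibroblast markers, -0.05 for 15 endothelial markers, 0.03 for 15 leukocyte markers, 0.06 for 6 cholangiocyte markers and 0.02 for 7 blood markers. Each of these lists had 0 called members. At an unadjusted p under 0.05, 4 leukocyte markers were higher and 0 lower, and 4 hepatocyte markers were higher and 0 lower. Without overlap between the compounds, 4 leukocyte and 2 hepatocyte markers were higher. Of all genes, 5.53% were higher at that p and 7.36% were higher without overlap. The leukocyte markers were dim. Their mean ran from 0.002 to 0.081 in the myclobutanil livers and from 0.003 to 0.074 in the propiconazole livers. S1pr1, a sphingosine receptor of endothelium, read 1.89, 2.03 and 1.80 with myclobutanil, 1.70, 1.65 and 1.37 with propiconazole and 2.21, 2.36 and 2.41 in controls. It fell by 0.75 with propiconazole against control (limma adjusted p = 0.017), and the difference between the compounds was -0.33 ± 0.120 (adjusted p = 0.444).

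A few inflammation-linked genes lay lower with propiconazole, with some of the largest differences of the comparison. Wfdc21, a secreted whey acidic protein family member on the acute phase list, read 2.52, 2.83 and 3.54 with myclobutanil, 1.38, 1.45 and 1.82 with propiconazole and 1.21, 1.45 and 1.19 in controls. The lowest myclobutanil liver was above all propiconazole and control livers. Wfdc21 rose with myclobutanil by 1.68 against control (limma adjusted p = 0.012), the value with propiconazole was 0.27 (adjusted p = 0.678), and the difference between the compounds was -1.41 ± 0.252 (adjusted p = 0.158). Lcn2, which encodes the iron-siderophore binding protein lipocalin, had the largest difference of all genes and also a wide spread. It read 0.43, 2.58 and 3.37 with myclobutanil, -0.01, 0.12 and 0.25 with propiconazole and -0.03, -0.02 and 0.03 in controls. The difference was -2.004 ± 0.604 (adjusted p = 0.371) over all arrays and -2.84 ± 0.385 without myclobutanil replicate 1 (adjusted p = 0.0293). Saa3, a serum amyloid A gene whose probes may also read related copies, read 0.27, 0.14 and 0.39 with myclobutanil, -0.15, -0.08 and -0.09 with propiconazole and -0.09, -0.13 and -0.08 in controls. It rose by 0.37 with myclobutanil against control (adjusted p = 0.011), and the difference between the compounds was -0.37 ± 0.052 (adjusted p = 0.0593). Saa3 was dim, with a mean of -0.02 over all arrays, where array medians as deposited ran from 0.0182 to 0.157.

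Several classic acute phase proteins of the hepatocyte had intervals around 0. Haptoglobin (Hp), fibrinogen beta (Fgb), C-reactive protein (Crp) and ceruloplasmin (Cp) differed by 0.01 [95% interval -0.13 to 0.15], 0.00 [-0.29 to 0.29], 0.06 [-0.25 to 0.38] and -0.04 [-0.24 to 0.17]. Of 24 acute phase genes tested out of 26 listed, 16 were higher and 8 lower with propiconazole, with a median of 0.08 and 0 called. Without myclobutanil replicate 1 the median turned to -0.02, and 2 members were called lower (13 of all 11842 genes). In that fit 7 were lower and 2 higher at an unadjusted p under 0.05, beside 795 and 519 of all 11842 genes. Cxcl9, an interferon-induced chemokine, read 1.56, 0.97 and 1.55 with myclobutanil, 0.62, 0.75 and 0.82 with propiconazole and 0.06, 0.29 and 0.33 in controls. Both compounds were above control and did not overlap with each other. Cxcl9 rose by 1.13 with myclobutanil (limma adjusted p = 0.009), and the value with propiconazole was 0.50 (adjusted p = 0.132); the difference between the compounds was -0.63 ± 0.145 (adjusted p = 0.254), and -0.83 without myclobutanil replicate 2, where it was called (adjusted p = 0.0287). Of the 25 interferon-induced genes tested, Cxcl9 among them, 18 were higher and 7 lower with propiconazole, with a median of 0.07. Gbp2, of the same list, lay opposite to Cxcl9. It read -0.17, -0.11 and -0.20 with myclobutanil, 0.09, -0.02 and 0.08 with propiconazole and 0.17, 0.19 and 0.20 in controls. Gbp2 fell by 0.35 with myclobutanil against control (adjusted p = 0.017), and the difference between the compounds was 0.21 ± 0.057 (adjusted p = 0.339). Gbp2 was dim like Saa3, with group means of 0.19 in controls, -0.16 with myclobutanil and 0.05 with propiconazole. Ltc4s, the leukotriene synthase, is on no list and was chosen after its values were seen. It read 1.001, 1.30 and 1.77 with myclobutanil, 0.23, 0.51 and 0.68 with propiconazole and 0.44, 0.50 and 0.33 in controls, and the difference was -0.88 ± 0.163 (adjusted p = 0.161).

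Cfd, complement factor D, and Serpina3m, a serine protease inhibitor, lay on the other side. Cfd read -0.20, -0.27 and -0.21 with myclobutanil, 0.24, 0.25 and 0.40 with propiconazole and 0.46, 0.28 and 0.27 in controls. The propiconazole livers overlapped with the controls and the myclobutanil livers were below both, with a fall of 0.56 against control (limma adjusted p = 0.009) and a difference between the compounds of 0.53 ± 0.071 (adjusted p = 0.0593). Serpina3m read 1.89, 2.11 and 1.92 with myclobutanil and 2.49, 2.59 and 2.36 with propiconazole, a difference of 0.50 ± 0.091 (adjusted p = 0.158), and close relatives may share its probes. The macrophage list mean given above moved with the same groups as these inflammation-linked genes, and its part in them was not tested.

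Some drug-metabolizing genes rose with both compounds. Of 29 CAR and PXR targets tested out of 44 listed, myclobutanil raised 7 and propiconazole raised 6 against control (1.28% and 0.996% of all genes rose), in comparisons that share the control livers. The list's median was 0.28 for myclobutanil and 0.23 for propiconazole. Between the compounds 13 were higher and 16 lower with propiconazole, with a median of -0.02 and 0 called. At an unadjusted p under 0.05, 6 were lower and 2 higher (5.56% and 5.53% of all genes). Without overlap, 6 were lower and 3 higher (7.03% and 7.36% of all genes). Cyp3a9 had the largest difference of the list, -0.64 ± 0.232 (limma adjusted p = 0.444). It read 2.85, 2.22 and 2.78 with myclobutanil, 2.01, 1.84 and 2.08 with propiconazole and 1.38, 2.31 and 1.63 in controls. Cyp3a23-3a1, the main PXR-induced cytochrome P450 of rat liver, read 3.45, 3.46 and 3.41 with myclobutanil, 3.44, 3.29 and 3.39 with propiconazole and 2.93, 3.10 and 3.07 in controls. Both treated groups were above the controls and overlapped with each other. The rises were 0.41 (limma adjusted p = 0.011) and 0.34 (adjusted p = 0.024), and the difference was -0.07 with a 95% interval of -0.20 to 0.06, which turned to 0.0039 with arrays centred on their medians. Members of the Cyp, Ugt, Ces and Gst families resemble each other, and their probes may read more than 1 member.

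Aldh1a1, the retinal dehydrogenase, read 2.31, 2.56 and 2.21 with myclobutanil, 2.65, 2.54 and 2.27 with propiconazole and 1.52, 1.19 and 1.37 in controls. Its myclobutanil and propiconazole means rose above the control mean by 0.9999 and 1.13 (limma adjusted p = 0.011 and 0.007), and the interval of the difference was -0.19 to 0.44 around 0.13, with a value of -0.0136 under array weights. Ces2c, a carboxylesterase, rose by 1.17 with myclobutanil and 1.48 with propiconazole (limma adjusted p = 0.012 and 0.006), and the difference was 0.30 [-0.08 to 0.69]. Ugt2b1, a glucuronosyltransferase, rose by 1.12 and 0.90 (adjusted p = 0.011 and 0.022), with a difference of -0.21 [-0.55 to 0.13]. These 3 genes rose with both compounds, and the intervals of their differences all include 0. Cyp1a1, the aryl hydrocarbon receptor target, read 0.72, 0.63 and 1.17 with myclobutanil, 1.08, 0.59 and 1.34 with propiconazole and 0.03, 0.06 and 0.06 in controls. It rose by 0.79 and 0.96 (adjusted p = 0.049 and 0.028), and the difference was 0.17 [-0.22 to 0.55], or -0.0013 without propiconazole replicate 3.

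Some members of this group lay further apart, and of those given here and below Por, Hmox1 and Cyp1a2 were higher with propiconazole. Por, the reductase that feeds electrons to every microsomal P450, read 1.44, 1.45 and 1.44 with myclobutanil, 1.74, 1.95 and 1.86 with propiconazole and 1.11, 0.66 and 0.65 in controls. All propiconazole livers were above all myclobutanil livers, which were above all controls. The rises against control were 0.64 and 1.04 (limma adjusted p = 0.036 and 0.006), the difference was 0.40 [0.12 to 0.68] (adjusted p = 0.394), and a second Por probe set gave 0.72 ± 0.247. Hmox1, the heme oxygenase, read 2.01, 1.28 and 2.48 with myclobutanil, 2.69, 2.24 and 2.92 with propiconazole and 0.86, 0.95 and 0.76 in controls. The treated groups overlapped, and the difference was 0.70 [0.06 to 1.33] (adjusted p = 0.479).

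On the other side, Gsta3, a glutathione transferase, read 1.62, 2.17 and 1.71 with myclobutanil, 1.46, 1.32 and 1.42 with propiconazole and 0.18, 0.15 and -0.04 in controls. It rose by 1.73 and 1.30 against control (limma adjusted p = 0.004 and 0.010), and the difference was -0.43 [-0.82 to -0.04] (adjusted p = 0.479). Abcc3, an efflux pump of the basolateral membrane, read 0.62, 0.76 and 0.69 with myclobutanil and 0.35, 0.29 and 0.54 with propiconazole, beside -0.03 to 0.04 in controls. The rise was called with myclobutanil (0.69, adjusted p = 0.013), the value with propiconazole was 0.40 (adjusted p = 0.109), and the difference was -0.30 [-0.53 to -0.06]. Nqo1, the quinone reductase, read 2.31, 2.20 and 2.24 with myclobutanil and 1.85, 2.04 and 2.01 with propiconazole, a difference of -0.28 [-0.50 to -0.06]. Alas1, which starts heme synthesis, read 2.04, 2.35 and 2.12 with myclobutanil, 1.79, 1.68 and 1.72 with propiconazole and 1.83, 1.78 and 1.17 in controls, a difference of -0.44 [-0.79 to -0.09] (adjusted p = 0.446). Abcb1a, a drug efflux pump, differed by -0.39 [-0.73 to -0.04], with groups that overlapped. Cyp1a2, the constitutive relative of Cyp1a1, was instead higher with propiconazole, by 0.39 [0.09 to 0.69], also with groups that overlapped. Over the 18 NRF2 targets tested, 12 were higher and 6 lower with propiconazole, with a median of 0.08. The antioxidant response element TGACNNNGC was searched on both strands within the same 250 bases. It was in 5 of 18 promoters, of 16 genes, of the NRF2 list (27.8%), beside 10.1% of all promoters. The cholesterol synthesis list held it at a similar share, in 4 of 15 promoters (26.7%).

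**Figure D4:**
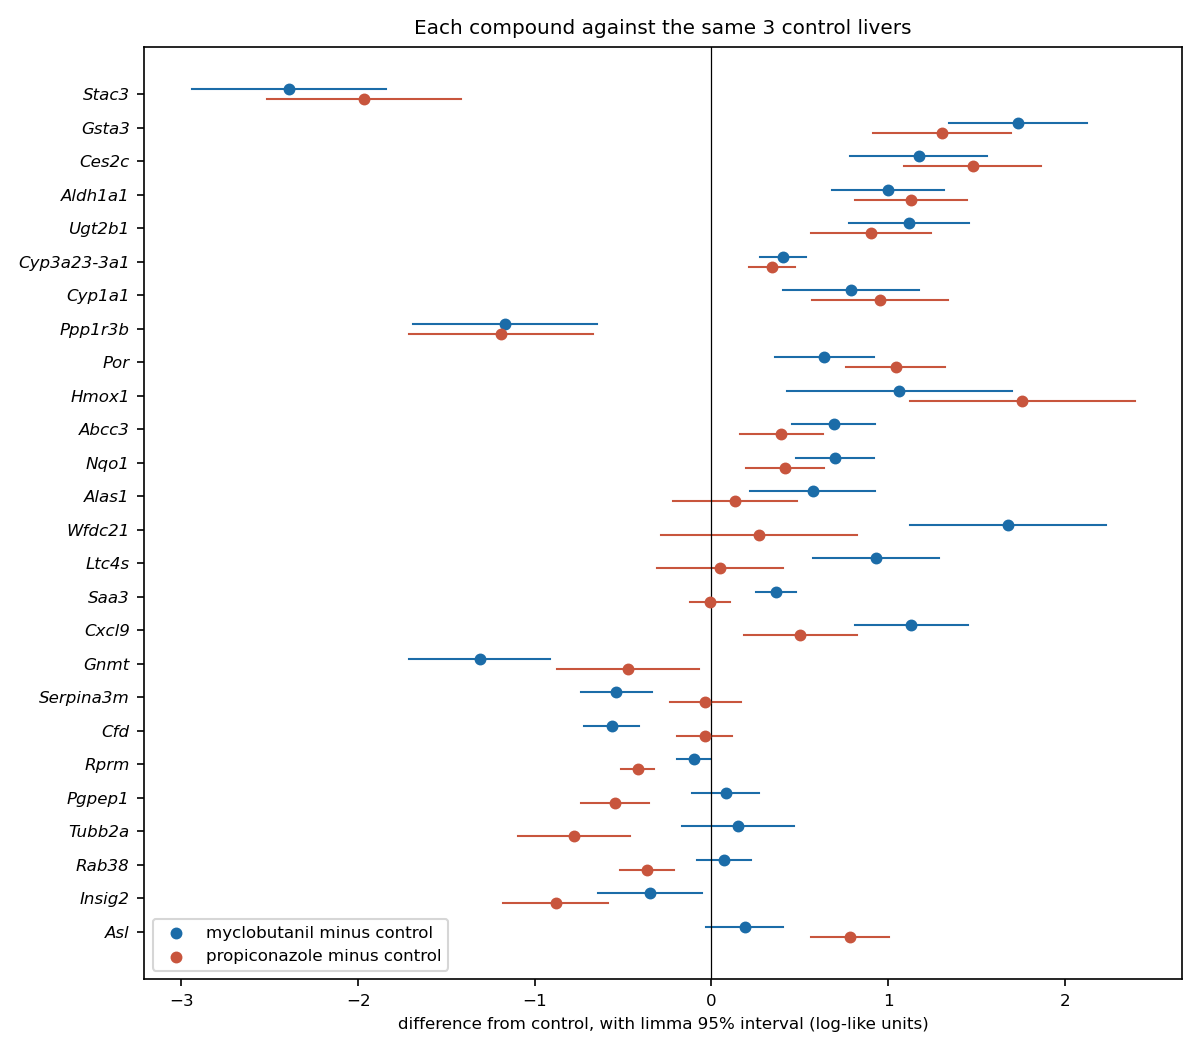
Difference from the same 3 control livers with its 95% limma interval (horizontal axis, log-like units) for 26 genes, with myclobutanil in blue and propiconazole in red. The compounds lie close together for Cyp3a23-3a1 (0.41 and 0.34) and Ppp1r3b (-1.17 and -1.19), and apart for Wfdc21 (1.68 and 0.27) and Gnmt (-1.31 and -0.47).

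Both compounds lowered Stac3 and Ppp1r3b. Stac3, best known as a muscle excitation-contraction adaptor, read 0.67, 0.04 and -0.13 with myclobutanil, 0.30, 0.93 and 0.62 with propiconazole and 2.68, 2.50 and 2.57 in controls. The falls were 2.39 and 1.97 (limma adjusted p = 0.004 and 0.007), and the difference was 0.43 [-0.13 to 0.98]. Ppp1r3b, which brings a phosphatase to glycogen, read 0.19, 1.42 and 0.82 with myclobutanil and 0.80, 0.64 and 0.94 with propiconazole, beside 2.14, 1.97 and 1.84 in controls. Its difference was -0.02 [-0.54 to 0.50].

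Genes of amino acid and methionine metabolism lay mostly higher with propiconazole, 24 of the 29 tested out of 31 listed, with a median of 0.20 and 0 called. An unadjusted p under 0.05 and a higher value was found for 9, against 5.53% of all genes, and 9 did not overlap, against 7.36%. Against control, myclobutanil lowered 3 and raised 0, whereas propiconazole lowered 3 and raised 2. Of all genes, 0.98% fell and 1.28% rose with myclobutanil, and 0.684% fell and 0.996% rose with propiconazole. Gnmt, which disposes of methyl groups by methylating glycine, read 1.59, 1.75 and 1.18 with myclobutanil, 2.43, 2.60 and 2.02 with propiconazole and 3.03, 2.77 and 2.66 in controls. The groups were ordered without overlap. Gnmt fell by 1.31 with myclobutanil (limma adjusted p = 0.011), the value with propiconazole was -0.47 (adjusted p = 0.261), and the difference between the compounds was 0.84 ± 0.183 (adjusted p = 0.225). Asl, the argininosuccinate lyase of the urea cycle, was raised by propiconazole. It read 1.85, 1.63 and 1.66 with myclobutanil, 2.37, 2.36 and 2.21 with propiconazole and 1.61, 1.55 and 1.43 in controls, a rise of 0.78 against control (adjusted p = 0.007). The difference was 0.60 ± 0.099 (adjusted p = 0.117), a second Asl probe set gave 0.98 ± 0.211, and it was called at 0.66 without myclobutanil replicate 1.

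Sds, the serine dehydratase that feeds gluconeogenesis, read 2.17, 1.81 and 0.64 with myclobutanil, 2.93, 2.80 and 2.49 with propiconazole and 1.89, 1.55 and 1.15 in controls. The difference was 1.20 ± 0.339 (limma adjusted p = 0.352), with replicate 3 of myclobutanil the lowest liver. Ass1, the urea cycle partner of Asl, read 2.72, 2.94 and 2.52 with myclobutanil and 3.24, 3.30 and 2.98 with propiconazole, a difference of 0.45 ± 0.122. Slc6a6, the taurine transporter, was the member with an unadjusted p under 0.05 on the other side. It fell with both compounds against control, by 0.86 and 1.28 (adjusted p = 0.042 and 0.011), and the difference was -0.42 ± 0.182. Cps1 and Arg1, further urea cycle enzymes, differed by 0.10 [-0.10 to 0.30] and 0.15 [-0.01 to 0.30].

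Glucose and glycogen genes were higher with propiconazole in 18 of the 20 tested out of 26 listed, with a median of 0.16, or 0.24 without myclobutanil replicate 1, and 0 called. Of these 6 had an unadjusted p under 0.05 and a higher value, against 5.53% of all genes, and 5 did not overlap, against 7.36%. Pklr, the liver pyruvate kinase, read 0.67, 1.11 and 0.23 with myclobutanil, 1.04, 1.82 and 1.86 with propiconazole and 1.90, 1.20 and 1.65 in controls. The difference was 0.90 ± 0.266 (limma adjusted p = 0.365), and a second probe set gave 0.25 ± 0.188. Tat, the tyrosine aminotransferase induced by glucocorticoids, read 1.31, 1.95 and 1.07 with myclobutanil and 2.22, 2.39 and 2.11 with propiconazole, a difference of 0.79 ± 0.235 (adjusted p = 0.365). Fbp1 and Pc, both enzymes of gluconeogenesis, fell with myclobutanil against control by 0.37 and 0.64 (adjusted p = 0.029 and 0.040), and their differences between the compounds were 0.21 ± 0.069 and 0.33 ± 0.133. Pck1, the rate-limiting enzyme of the pathway, differed by 0.00 [-0.23 to 0.23].

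Cell cycle genes lay lower with propiconazole, 29 of the 32 tested out of 39 listed, with a median of -0.11 and 0 called. An unadjusted p under 0.05 and a lower value was found for 11, against 5.56% of all genes, and 7 did not overlap, against 7.03%. Myclobutanil raised 8 of the 32 against control (1.28% of all genes rose), and 0 were called with propiconazole. Mki67, the proliferation antigen, read 0.20, 0.12 and 0.26 with myclobutanil, -0.06, 0.00 and 0.09 with propiconazole and -0.14, -0.11 and -0.07 in controls. The groups were ordered without overlap between the compounds, and the difference was -0.18 ± 0.049 (limma adjusted p = 0.328). Mki67 was dim, with group means of -0.11 in controls, 0.19 with myclobutanil and 0.01 with propiconazole. Array medians as deposited ran from 0.0182 to 0.157. Cdk1, the mitotic kinase, read 0.95, 0.39 and 0.55 with myclobutanil and 0.00, 0.22 and 0.41 with propiconazole, a difference of -0.42 ± 0.137. Top2a, the topoisomerase of dividing cells, had a mean of 0.13 over all arrays and differed by -0.24 ± 0.072. The mean over the list was 0.52 in myclobutanil replicate 1 and 0.33 in the other 2 myclobutanil livers, beside 0.20, 0.28 and 0.36 with propiconazole. Without that replicate the median was -0.05.

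Several of the smallest p-values belonged to genes called against control with propiconazole and not with myclobutanil. Rprm, a p53-induced cell cycle brake, read 0.13, 0.16 and 0.12 with myclobutanil, -0.17, -0.18 and -0.18 with propiconazole and 0.28, 0.25 and 0.19 in controls. Its propiconazole livers were below every myclobutanil and control liver, with a fall of 0.42 against control (limma adjusted p = 0.005) and a difference between the compounds of -0.32 ± 0.042 (adjusted p = 0.0593). Rprm was dim, with a mean of -0.02 over all arrays, where array medians as deposited ran from 0.0182 to 0.157. Pgpep1, a pyroglutamyl peptidase whose probe set is marked as possibly reading other transcripts, read 2.10, 1.98 and 2.02 with myclobutanil, 1.52, 1.33 and 1.37 with propiconazole and 1.88, 2.04 and 1.94 in controls. It fell by 0.55 with propiconazole (adjusted p = 0.017), and the difference was -0.63 ± 0.087 (adjusted p = 0.0593). Tubb2a, a beta-tubulin, read 2.34, 2.31 and 2.57 with myclobutanil and 1.48, 1.18 and 1.78 with propiconazole, beside 2.21, 2.18 and 2.38 in controls, a difference of -0.92 ± 0.145 (adjusted p = 0.0823). Rab38, a vesicle traffic GTPase, differed by -0.43 ± 0.070 (adjusted p = 0.0966). Tubb2a and Rab38 were chosen after their values were seen.

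Ccng1, a p53 target, went the other way. It read 0.81, 0.80 and 1.03 with myclobutanil, 1.29, 1.11 and 1.33 with propiconazole and 0.51, 0.74 and 0.48 in controls, a rise of 0.67 with propiconazole (limma adjusted p = 0.009) and a difference of 0.36 ± 0.091. The 15 p53 targets tested had a median of 0.01, with 8 higher and 7 lower. Lipa, the lysosomal lipase that frees cholesterol from its esters, read 1.95, 2.02 and 2.08 with myclobutanil, 1.54, 1.62 and 1.58 with propiconazole and 1.77, 1.70 and 1.73 in controls. The controls were between the compounds and overlapped with neither, and the difference was -0.44 ± 0.065 (adjusted p = 0.0779). Lipa was called without myclobutanil replicate 1, with no intensity trend and with array weights, and not under the other settings.

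Steroid and retinoid enzymes held a few large differences in lists with medians near 0. Hsd17b2, which oxidizes estradiol and testosterone to weaker forms, read 1.49, 1.66 and 0.40 with myclobutanil, 2.36, 2.49 and 2.96 with propiconazole and 1.60, 1.78 and 1.74 in controls. Every propiconazole liver was above every myclobutanil and control liver, and the difference was 1.42 ± 0.278 (limma adjusted p = 0.175), the largest in favour of propiconazole among all genes. The values against control did not pass, at -0.52 with myclobutanil and 0.90 with propiconazole (adjusted p = 0.306 and 0.156). Rdh16, a retinol dehydrogenase with close relatives, read 1.03, 0.81 and 0.84 with myclobutanil, 1.92, 2.08 and 1.30 with propiconazole and 1.47, 1.29 and 1.19 in controls, a difference of 0.88 ± 0.189 (adjusted p = 0.224). Cyp26a1, which clears retinoic acid, differed by -0.05 [-0.31 to 0.22] and turned to 0.0949 without myclobutanil replicate 1 and to 0.0351 without propiconazole replicate 2. Hsd3b7, an enzyme of bile acid synthesis, read 1.62, 1.40 and 1.62 with myclobutanil and 2.03, 2.12 and 1.96 with propiconazole, a difference of 0.49 ± 0.135 (adjusted p = 0.339). Cyp7a1, the rate-limiting enzyme of that pathway, spread from 0.22 to 1.88 with myclobutanil and from 0.88 to 2.20 with propiconazole, and its difference of 0.26 [-0.78 to 1.29] turned to -0.2882 without myclobutanil replicate 3 and to -0.0696 without propiconazole replicate 1.

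Clock genes held differences in both directions. Dbp, an output gene of the clock, read 0.18, 0.02 and 0.06 with myclobutanil, 0.47, 0.70 and 1.16 with propiconazole and -0.02, 0.07 and 0.14 in controls. The myclobutanil livers overlapped with controls, and the propiconazole livers were above both. The difference was 0.69 ± 0.161 (limma adjusted p = 0.254). Nr1d1, the repressor REV-ERB alpha, read 0.18, 0.20 and -0.10 with myclobutanil, 0.58, 0.71 and 0.71 with propiconazole and 0.29, 0.82 and 0.82 in controls, a difference of 0.57 ± 0.181. Npas2, an activator of the clock, fell with both compounds against control, by 0.42 and 0.72 (adjusted p = 0.047 and 0.007), and differed by -0.30 ± 0.091. Of 16 clock genes tested, 6 were higher and 10 lower, with a median of -0.06, or 0.03 without myclobutanil replicate 1. The hour at which each liver was taken is not stated in the labels.

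Over the 31 lists together the medians ran from -0.46 for cholesterol synthesis to 0.26 for Kupffer cell and macrophage markers. Heat shock and immediate early genes came next with a median of 0.25 over 24 genes, 17 of them higher with propiconazole, but with wide intervals. Hspa1a, the inducible heat shock chaperone, read 1.99, 0.56 and 1.46 with myclobutanil, 2.60, 1.28 and 3.44 with propiconazole and 0.32, 0.23 and 0.996 in controls, a difference of 1.10 [-0.24 to 2.45]. Fatty acid oxidation and PPAR-alpha targets had a median of 0.14 over 32 genes, with 23 higher. Cpt2, the inner mitochondrial carnitine palmitoyltransferase, rose with propiconazole against control by 0.57 (limma adjusted p = 0.039), and it differed by 0.37 ± 0.115 between the compounds. Cyp4a1, the fatty acid hydroxylase that marks PPAR-alpha activity, lay on the other side with a difference of -0.27 ± 0.1004. Glutathione transferases were higher with propiconazole in 15 of 19 genes (median 0.11), heme genes in 9 of 13 (0.05), thyroid hormone genes in 8 of 13 (0.07) and aryl hydrocarbon receptor targets in 4 of 6 (0.09), each with 0 called. Nr0b2, the bile acid-induced repressor SHP, fell with myclobutanil against control by 0.88 (adjusted p = 0.020), its value with propiconazole was -0.67 (adjusted p = 0.054), and the difference between the compounds was 0.21 [-0.12 to 0.54].

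**Figure D5:**
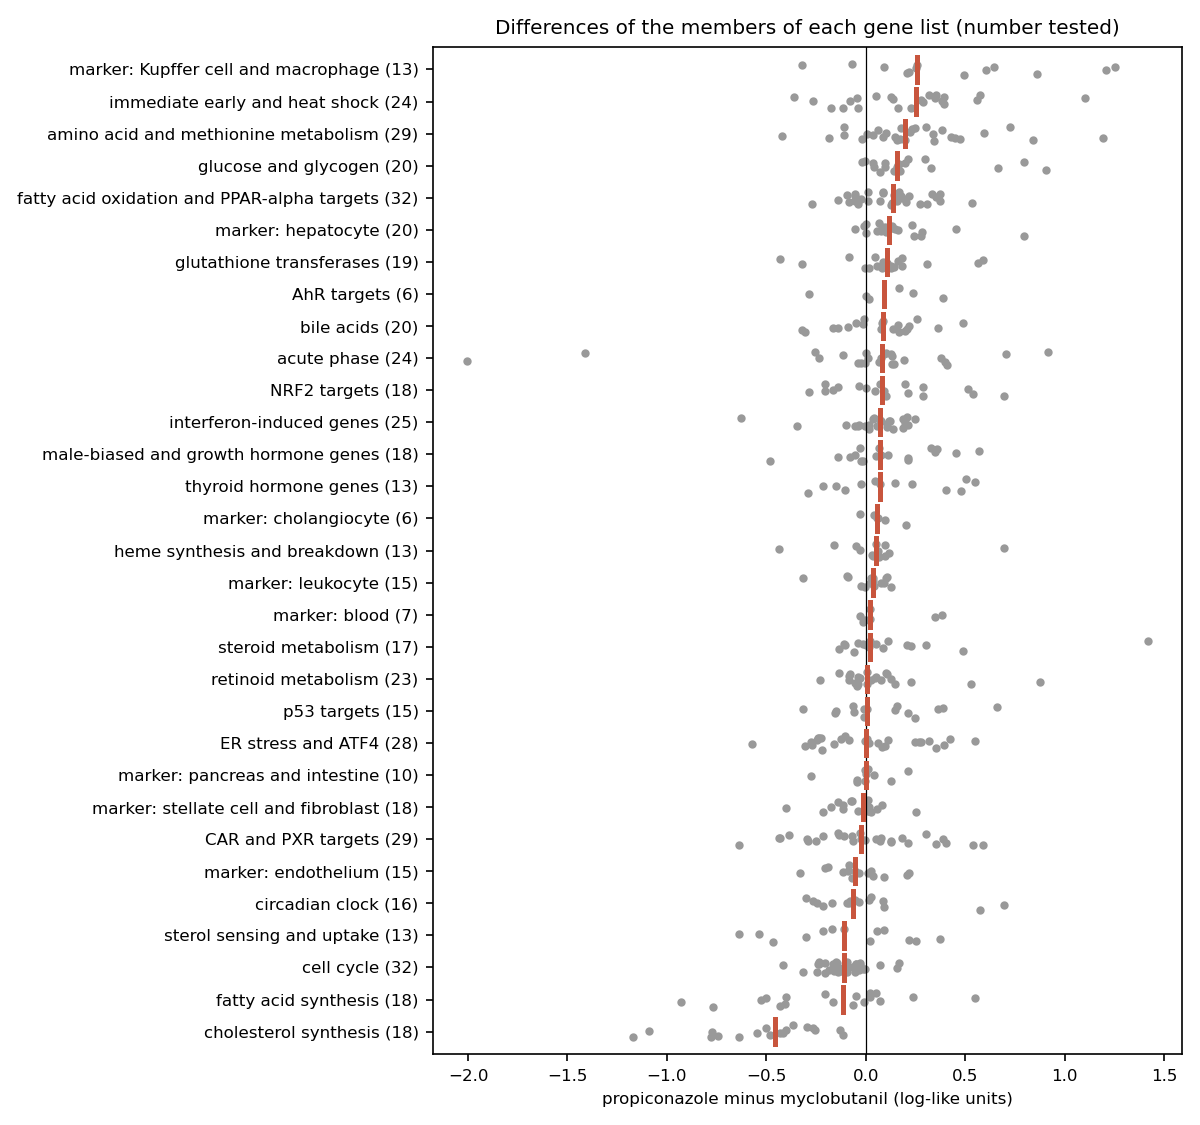
Propiconazole minus myclobutanil difference (horizontal axis, log-like units) of each tested member (grey points) of 31 gene lists, with the list's median as a red bar and the number tested in parentheses. Cholesterol synthesis lies lowest, at a median of -0.46 with all 18 members below 0, and Kupffer cell and macrophage markers lie highest, at 0.26.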

How the data were processed

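Liver RNA of 12 rats was read on 12 Affymetrix arrays, 1 liver per array, per the labels' protocols. The deposited values are log-like scores per probe set; their log base, centring and normalization by the authors are not stated in any source read here. The design had assumed a known array scale, so differences are given in the deposited units and not as folds. RNA had passed the submitters' quality limits per the labels' protocols.

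Probe sets were named from GEO's platform annotation, with symbols updated through Entrez identifiers to RefSeq (GRCr8). Of 31042 probe sets, after 57 control probe sets were left out, 20826 had a single gene, 436 had several and 9780 had none. Updated symbols came through for 20758, and 68 kept their old symbol. Array medians spanned 0.138 units, more than the median spread within groups (SD 0.0736), so arrays were quantile-normalized. The dimmest 30% of probe sets were left out, and 21729 were tested. One limma model (version 3.58.1, R 4.3.3) held 4 group means over all 12 arrays, with an intensity trend and 8 residual degrees of freedom. P-values are two-sided, and adjusted p-values are Benjamini-Hochberg over all 21729 probe sets, called under 0.05. Every adjusted p in the text is from limma. The labels name 3 rats per group. Tables and plots were made with Python 3.11.15, pandas 2.3.3 and matplotlib 3.10.9, and the fit was tested on simulated data.

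The genes and lists were chosen with earlier results of these data known. Named genes were those with the smallest p, up to 5 a side, up to 2 per list with the smallest p, and a set of drug metabolism, sterol, inflammation and macrophage genes. Other genes were chosen after their values were seen. Gene values come from the probe set with the highest mean. Alternatives were the deposited values, median centring, other filters, other arrays in the fit, no trend, robust fitting, array weights, replicate numbers as a block, a looser threshold and leaving out each array.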

Additional observations from a re-analysis of the deposited data

How the results depend on the processing

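The count of probe sets called between the compounds (0 by limma) moved with several choices. It was 1 with the values as deposited (0 higher and 1 lower with propiconazole), 1 with median centring (1 higher and 0 lower), 2 with the lowest 50% of probe sets left out (1 and 1), 5 with no intensity trend (2 and 3), 343 with array weights (114 and 229) and 13 at an adjusted p under 0.10 (3 and 10). It stayed at 0 with no filter, with the 6 arrays alone, without the triadimefon arrays and with robust fitting. With the 6 arrays alone, 5.6% of probe sets had an unadjusted p under 0.05, beside 10.1% in the main fit. The smallest adjusted p was then 0.276, and 0 probe sets lay under 0.10. Leaving out 1 array at a time gave 0 to 29 calls (0 to 8 higher and 0 to 21 lower), the most without myclobutanil replicate 1. The cause of these moves was not tested. With replicate numbers as a block the count was 0, with 2045 probe sets at an unadjusted p under 0.05. Same-numbered myclobutanil and propiconazole arrays deviated from their group means with correlations of -0.0513, 0.481 and -0.0415, so the numbers were not taken to pair the animals. Of 84 named genes, 80 kept their sign under every other setting and 80 under every array left out. The sign turned for Cyp3a23-3a1 with median centring (0.0039), and for Aldh1a1 (-0.0136), Cyp7a1 (-0.0054) and Cyp26a1 (0.1156) with array weights. With arrays left out, Cyp1a1 ran from -0.0013 to 0.3731, Cyp7a1 from -0.2882 to 0.5873, Cyp26a1 from -0.1486 to 0.0949 and Cyp2c11 from -0.0058 to 0.6088. Of 682 list medians under these settings, 24 moved by more than 1 SD of the list's mean between livers. With 3 arrays per group, signal and array number limit what can be called.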

Other observations

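Some other lists held genes on both sides. Of 28 endoplasmic reticulum stress and ATF4 genes, 14 were higher and 14 lower with propiconazole, with a median of 0.00, or -0.16 without myclobutanil replicate 1, and 0 were called by limma. At an unadjusted p under 0.05, 6 were lower and 2 higher (5.56% and 5.53% of all genes). Without overlap, 5 were lower and 1 higher (7.03% and 7.36% of all genes). Leaving out that replicate gave 7 lower and 1 higher at an unadjusted p under 0.05, beside 795 and 519 of all 11842 genes. Sdf2l1, a chaperone cofactor of that compartment, read 2.61, 2.07 and 2.30 with myclobutanil, 1.59, 1.71 and 1.96 with propiconazole and 1.77, 1.88 and 1.83 in controls, a difference of -0.57 ± 0.134 (limma adjusted p = 0.256). Its myclobutanil livers were above all others. The 18 male-biased and growth hormone genes had a median of 0.07, with 11 higher. Cyp2c11, the main male-specific P450 of rat liver, read 3.64, 3.33 and 2.39 with myclobutanil and 3.52, 3.44 and 3.48 with propiconazole, and its difference of 0.36 [95% interval -0.15 to 0.87] turned to -0.0058 without myclobutanil replicate 3. A2m, the rat acute phase macroglobulin, was uneven in the same way. It read 0.19, 0.24 and 2.60 with myclobutanil, 2.03, 1.82 and 1.93 with propiconazole and 0.66, 0.87 and 0.60 in controls. One myclobutanil liver, replicate 3, was above every propiconazole liver, and the other 2 were below every control.

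The livers given triadimefon, at 175 mg/kg/day and so not at a matched dose, are given as values with no comparison. Clec4f read 2.02, 2.12 and 2.08, and Cd5l read 1.88, 1.62 and 1.67. Idi1 read 1.36, 1.49 and 2.04, Sqle 0.93, 1.31 and 1.55, and Nsdhl 2.21, 2.07 and 2.32. Hsd17b2 read 2.92, 3.12 and 2.66, Rprm -0.35, -0.31 and -0.17, and Dbp 1.41, 1.43 and 0.96. Lcn2 read 0.00, -0.01 and 1.49, with a single liver above the range of the other 2.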
